A study of Mus musculus with 10 samples.

Results

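The endoplasmic reticulum (ER) folding and secretory stress genes are 39 genes that encode the sensors of ER stress, the chaperones and isomerases of the ER lumen, the machinery of ER-associated degradation, and the channel and peptidase that bring secreted proteins into the ER. Members were found as every probe set whose platform annotation gives exactly 1 gene symbol, that symbol being on the list. This gave 96 probe sets for 38 genes, of 45037 probe sets and 18193 genes in all. Sec61g had no such probe set, because its probe set carries several symbols, and has no value here. Of the 38 genes, 37 passed the filter on dim probe sets with 88 probe sets. The other one, Derl3, a derlin of ER-associated degradation, had a mean of -4.41 in knockout and 5.83 in wild type livers, under the floor of 16 intensity units, and was not tested.

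The study compared 5 livers of fetuses lacking Zfp36l2 (Zfp36l2 knockout, KO) with 5 livers of wild type (WT) fetuses at embryonic day 14.5, all on a mixed b6 and 129 background. Each array held RNA of 1 liver, so every replicate is a separate animal. The Zfp36l2 protein, a relative of tristetraprolin, binds AU-rich elements in mRNAs and speeds their decay. Which part of the gene was removed, and in which cells, is not given in the labels. Its brightest probe set checked the labels, with 108, 82.3, 109, 103 and 108 in knockout livers 1 to 5, against 396, 397, 596, 391 and 389 in wild type livers 1 to 5, and a log2 change of -2.08 ± 0.13 (SE; limma adjusted p = 1.47e-06). A dimmer probe set of the gene had -0.25 ± 0.31 with overlap (limma adjusted p = 0.858), and another averaged below 0 and was not tested; where they lie relative to the removed part was not analysed here. The array intensities are on a linear scale that runs below 0, with 20.7% to 22.6% of a liver's probe sets at or below 0 and array medians of 19.5 to 25.01. They were quantile-normalized here, and raised to 16 where lower before taking log2. Levels below are these normalized linear intensities, and a value after ± beside a log2 change is limma's SE throughout. Levels of different probe sets cannot be set against each other, so each gene is compared with itself between genotypes. In RNA from whole livers, fewer cells of a type and less RNA per cell cannot be told apart.

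Secreted and membrane proteins enter the ER through the Sec61 channel, lose their signal peptide, and fold with the help of chaperones such as BiP and of disulfide isomerases. When unfolded proteins accumulate, the sensors in the ER membrane, IRE1, ATF6 and PERK, start the unfolded protein response. IRE1 splices the mRNA of the transcription factor XBP1, and XBP1 and ATF6 raise the transcription of chaperones and of degradation and translocation genes, whereas PERK slows translation and leads to ATF4 and CHOP. Hepatocytes secrete most plasma proteins and carry a large ER, and macrophages and granulocytes of the fetal liver also make large amounts of ER-processed proteins.

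Most members were slightly higher in knockout livers. Of 37 tested members, 34 had a positive log2 change, 91.9% against 50.1% of all 12821 tested genes, and their median log2 change was 0.13 against 0.00018 over all tested genes. Changes were small, from -0.083 to 0.45 on the log2 scale, a difference of at most 1.37-fold. Serp1 and Xbp1 rose at an adjusted p under 0.05, in limma over all 27022 tested probe sets, and no member fell. Neither call held when the floor was the lowest positive value, as in earlier processing of this table, or in several other settings given beside each gene. This is 2 of 37 members called higher, where 0.156% of all tested genes were called higher and 0.172% lower, and 0.211% of all probe sets were called in either direction. At an unadjusted p under 0.05, 15 members were higher and 0 lower, against 5.94% and 5.44% of all tested genes. In 7 members every knockout liver lay above every wild type liver, and in 0 every knockout liver lay below, against 1.33% and 1.43% of all tested genes. The members were listed with earlier results of these data known, so these counts describe the list and are not a test of it.

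**Figure D1:**
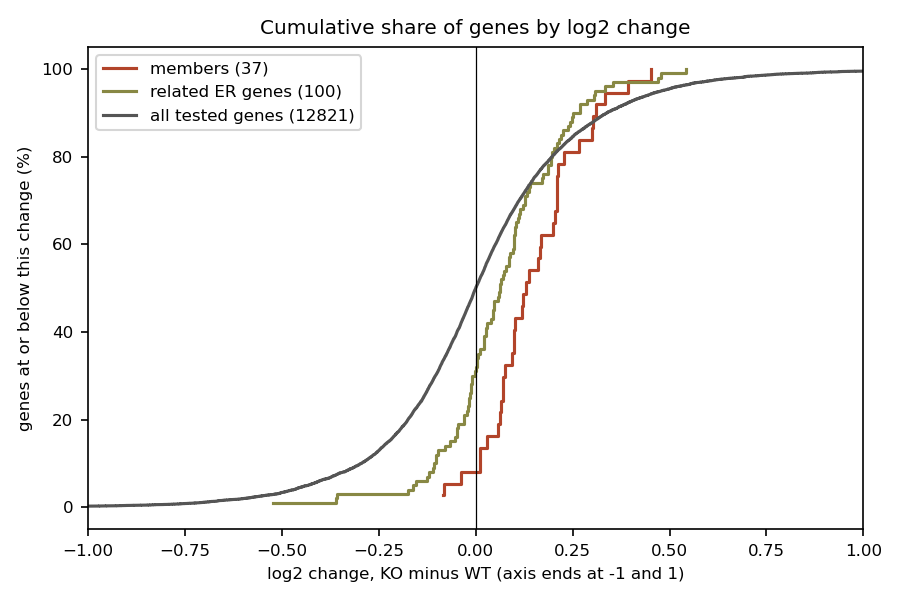
Cumulative share of genes (vertical, percent) by log2 change of KO minus WT (horizontal) for the 37 tested members, 100 tested related ER genes and all 12821 tested genes. The curve of the members crosses 50% at 0.13 and that of all genes at about zero, while all genes reach further out in both directions.

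The promoters of several members carry the ER stress response element (ERSE), at which the factor NF-Y and ATF6 or XBP1 bind. Windows from 250 bases before to 50 bases after the start site came from RefSeq (GRCm38.p6) and existed for 31 of the 39 members, in 32 windows. An exact ERSE, CCAAT and CCACG with 9 bases between them on either strand, stood in the windows of 9 of these 31 members, Calr, Canx, Creld2, Derl3, Dnajc3, Hsp90b1, Hspa5, Pdia6 and Syvn1, and in 0.119% of all 32851 windows. The shorter form ERSE-II, ATTGG and CCACG with 1 base between them, stood in those of Dnajb11 and Herpud1 and in 0.0365% of all windows. The XBP1 element TGACGTGG was in 0 member windows and in 0.676% of all windows. The half-site CCACG, which every ERSE and ERSE-II contains, was in the windows of 25 members and in 32.8% of all windows. The list holds textbook targets of this response, so the matches describe what the members share. They are no evidence that a factor was bound in these livers.

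The sites are shown with the fixed bases in capitals and the spacer in lower case, each written in the direction of the motif on GRCm38.p6. Those of Calr, Creld2 and Derl3 and the Hsp90b1 site at the lower coordinate read on the strand opposite to the gene, and the others on the strand of the gene.
Hspa5, chr2:34772025-34772043: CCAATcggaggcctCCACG
Hsp90b1, chr10:86705533-86705551: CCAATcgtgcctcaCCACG
Hsp90b1, chr10:86705638-86705656: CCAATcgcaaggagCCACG
Calr, chr8:84847075-84847093: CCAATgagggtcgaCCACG
Canx, chr11:50325800-50325818: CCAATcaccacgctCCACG
Pdia6, chr12:17266491-17266509: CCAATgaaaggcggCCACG
Dnajc3, chr14:118937827-118937845: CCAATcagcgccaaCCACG
Creld2, chr15:88819520-88819538: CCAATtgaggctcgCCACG
Syvn1, chr19:6046532-6046550: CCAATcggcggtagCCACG
Derl3, chr10:75893242-75893260: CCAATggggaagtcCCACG
Dnajb11, chr16:22857852-22857862: ATTGGcCCACG
Herpud1, chr8:94386377-94386387: ATTGGgCCACG

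The first base of the ERSE lay between 44 and 212 bases before the start site, which is 44 in Syvn1 and 65 in Hspa5. Of the 10 tested members with an ERSE or ERSE-II, 10 had a positive log2 change, 6 an unadjusted p under 0.05 and 2 no overlap of the genotypes, with a median log2 change of 0.19. Among the 19 tested members whose window held neither, those counts were 18, 6 and 4, with a median of 0.12. Of all tested genes, 50.1% had a positive change and 5.94% were higher at that unadjusted level. In 1.33% of them every knockout liver lay above every wild type liver. The difference between members with and without these elements was not tested. Both members that rose, Serp1 and Xbp1, were among these 19, and a missing match says only that those letters are not in this window. No CCACG stood on either strand of the Xbp1 window, which is not shown. The windows of Hspa5, with its ERSE in capitals, and of Serp1, with its copies of CCACG in capitals, are shown to compare a promoter holding the whole element with that of a member that rose.
Hspa5, chr2:34771840-34772139, strand +: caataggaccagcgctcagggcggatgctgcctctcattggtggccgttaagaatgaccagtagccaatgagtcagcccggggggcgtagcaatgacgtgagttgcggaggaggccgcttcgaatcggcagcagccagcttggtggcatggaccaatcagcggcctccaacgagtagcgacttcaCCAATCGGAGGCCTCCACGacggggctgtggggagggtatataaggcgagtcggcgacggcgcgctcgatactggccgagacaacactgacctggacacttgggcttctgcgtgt
Serp1, chr3:58525835-58526134, strand -: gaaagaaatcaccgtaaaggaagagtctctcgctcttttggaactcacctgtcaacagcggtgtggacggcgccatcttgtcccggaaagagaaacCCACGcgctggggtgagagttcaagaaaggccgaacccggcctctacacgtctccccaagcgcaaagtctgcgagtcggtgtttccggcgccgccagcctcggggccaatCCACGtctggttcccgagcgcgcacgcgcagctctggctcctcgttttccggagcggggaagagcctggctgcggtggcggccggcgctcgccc

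Serp1, a small membrane protein that stabilizes newly made membrane proteins at the translocon during ER stress, was the member with the lowest p. It measured 1713, 1802, 1772, 1881 and 1846 in knockout livers 1 to 5, against 1528, 1521, 1371, 1429 and 1307 in wild type livers 1 to 5. All knockout livers lay above all wild type livers, a log2 change of 0.33 ± 0.057 (SE; 1.26-fold, limma adjusted p = 0.0294). Its second probe set read 1348 to 1512 in knockout against 1125 to 1309.5 in wild type livers, again with no overlap, at 0.25 ± 0.058 (limma adjusted p = 0.0972). The call depended on the livers used: without knockout replicate 2, 3, 4 or 5, or wild type replicate 3 or 4, it was lost at log2 changes of 0.32 to 0.34 and adjusted p-values of 0.0564 to 0.0911. It was also lost in limma without normalization, with the floor at the lowest positive value or at 32, without a filter, and without the trend, at adjusted p-values of 0.0635 to 0.331.

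Xbp1, the transcription factor activated by IRE1, was the other member that rose. Its representing probe set measured 1635, 1859, 1699, 1674 and 1648 in knockout livers 1 to 5, against 1403, 1465, 1362, 1301 and 1364 in wild type livers 1 to 5, and the genotypes did not overlap. The log2 change was 0.30 ± 0.055 (SE; 1.23-fold, limma adjusted p = 0.0359). Another probe set had a log2 difference of 0.35 ± 0.076 (adjusted p = 0.0726 in limma) and one more 0.30 ± 0.061 (adjusted p = 0.0584), both without overlap, while a dim one had 0.28 ± 0.33 with overlap. Whether these probe sets tell spliced from unspliced Xbp1 mRNA was not analysed here. Its call held without wild type replicate 5 and was lost without any other single liver, at log2 changes of 0.27 to 0.33 and adjusted p-values of 0.0529 to 0.11. It was also lost in the 5 settings just named for Serp1, at adjusted p-values of 0.0637 to 0.346. The exact permutation test gave p = 0.00794 for both Serp1 and Xbp1, two-sided over the 252 ways to divide 10 livers, which is the smallest p that 5 against 5 livers can give.

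The genes of the stress sensors did not pass the test. Eif2ak3, which encodes PERK, lay at 100.5 to 118 in knockout against 83.7 to 116 in wild type livers, a log2 difference of 0.23 ± 0.15 (limma adjusted p = 0.66). Ern1, which encodes IRE1 alpha, lay at 104 to 126 in knockout against 81.0 to 157 in wild type livers, a difference of 0.063 ± 0.18. Wild type replicates 1 and 5 held its lowest and its highest value, so all knockout livers lay within the wild type range. Atf6 lay at 77.8 to 126 in knockout against 81.0 to 123 in wild type livers, with a difference of -0.083 ± 0.17 whose SE exceeds its size.

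Creld2 and Manf encode small proteins that are made and released under ER stress. Creld2 had the largest log2 change of the members, 0.45 ± 0.11 (1.37-fold), and missed the threshold (limma adjusted p = 0.103). It measured 497, 431, 408, 512 and 379 in knockout livers 1 to 5, against 346, 386, 267, 322 and 307 in wild type livers 1 to 5. Only knockout replicate 5 lay under the highest wild type liver, replicate 2. Manf measured 1748, 1656, 1735, 1651 and 1564 in knockout livers 1 to 5, against 1530.4, 1451, 1359, 1291 and 1176 in wild type livers 1 to 5. No livers overlapped, and its log2 change of 0.30 ± 0.069 had a limma adjusted p of 0.091. With median scaling in place of quantile normalization Manf passed, at an adjusted p of 0.0451 in limma. With the replicate number as a block in the model, Manf and Creld2 both passed, at limma adjusted p-values of 0.0315 and 0.0453. Of the 21 settings tried for each, Manf passed in 2 and Creld2 in 1. Their limma adjusted p-values in these settings reached 0.423 and 0.376.

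**Figure D2:**
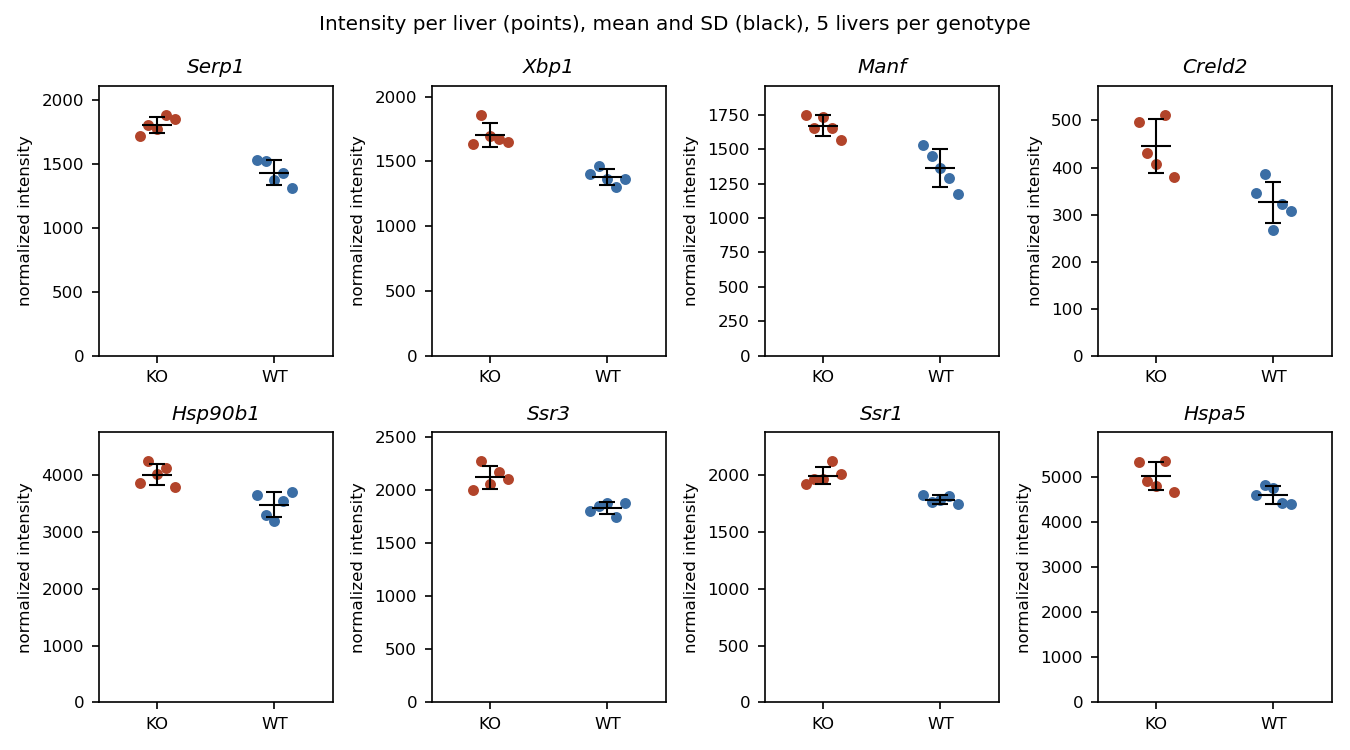
Normalized intensity (vertical, linear scale from 0) of Serp1, Xbp1, Manf, Creld2, Hsp90b1, Ssr3, Ssr1 and Hspa5 in each of 5 KO and 5 WT livers, with mean and SD. Knockout livers lie above wild type livers with no overlap in all but Creld2 and Hspa5.

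The HSP70 and HSP90 chaperones of the lumen each had an unadjusted p under 0.05 and a positive change, and none passed the adjusted threshold. Hsp90b1, the ER form of HSP90 also called GRP94, measured 3862, 4245, 4025, 4132 and 3797 in knockout livers 1 to 5, against 3653, 3309, 3198, 3540.0 and 3712 in wild type livers 1 to 5. The genotypes did not overlap, at 0.21 ± 0.056 (limma adjusted p = 0.166), and its other probe set gave a larger change of 0.38 ± 0.078 with no overlap (adjusted p = 0.0587). Hspa5, which encodes BiP, the HSP70 chaperone that holds the sensors inactive, averaged 5025 ± 308 in knockout and 4609.9 ± 189 in wild type livers (SD, n = 5 each), and the livers overlapped. Its changes over the tested probe sets were 0.12 ± 0.054, 0.20 ± 0.051 and 0.11 ± 0.11, with no overlap in the second. Hyou1, a nucleotide exchange factor for BiP, averaged 383 ± 51.3 in knockout and 308 ± 26.8 in wild type livers, a log2 change of 0.31 ± 0.100. Its dim probe sets had 0.67 ± 0.41 and -0.22 ± 0.37, so they differed in sign.

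The J-domain proteins start the ATPase of BiP. Dnajc3, which also inhibits PERK, measured 436, 433, 471, 445 and 428 in knockout livers 1 to 5, against 342, 387, 361, 407 and 419 in wild type livers 1 to 5, with no overlap at a log2 difference of 0.21 ± 0.075 (limma adjusted p = 0.33). All 5 tested Dnajc3 probe sets had a positive difference, up to 0.44 in the dimmest. Dnajb9, a target of XBP1 that represses IRE1, measured 328, 385, 356, 249.7 and 335 in knockout livers 1 to 5, against 289.7, 264, 274, 236 and 301 in wild type livers 1 to 5. Knockout replicate 4 lay among the wild type values and the other knockout livers above all of them, at 0.27 ± 0.11 (limma adjusted p = 0.436). Dnajb11, which binds unfolded proteins with BiP, lay at 321 to 424 in knockout against 295 to 343 in wild type livers, a difference of 0.21 ± 0.085, and overlapped only through knockout replicate 5. Sdf2l1, a partner of Dnajb11, lay at 105 to 161 in knockout against 99.0 to 136 in wild type livers, a difference of 0.14 ± 0.15.

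Of the lectin chaperones that hold glycoproteins, Calr, soluble calreticulin, averaged 3607 ± 268 in knockout and 3118 ± 201 in wild type livers at a log2 change of 0.21 ± 0.062 (limma adjusted p = 0.21). Wild type replicate 5 was above 2 of the knockout livers, and the other wild type livers below all of them. Its other probe sets gave 0.23 and 0.23. Canx, the membrane-bound calnexin, averaged 2769 ± 107 in knockout and 2747 ± 139.9 in wild type livers, a difference of 0.012 ± 0.053.

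Disulfide isomerases form and rearrange disulfide bonds, and in each of the 4 members the genotypes overlapped. Pdia4 had the largest log2 difference among them, 0.39 ± 0.14 (limma adjusted p = 0.332), at 151 to 222 in knockout against 112 to 158 in wild type livers. P4hb, the founding member of the family, lay at 3381 to 3835 in knockout against 2905 to 4146 in wild type livers, a difference of 0.094 ± 0.079. Its highest value was in wild type replicate 5. Pdia3, which works with calnexin and calreticulin, lay at 1477 to 1753 in knockout against 1418 to 1661 in wild type livers (0.076 ± 0.061), and Pdia6 at 1558 to 1743 in knockout against 1394 to 1672 in wild type livers (0.10 ± 0.064).

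Genes of ER-associated degradation, which returns misfolded proteins to the cytosol, were tested in 6 members. Positive log2 differences were found in 5 of them, 0 had an unadjusted p under 0.05, and the median was 0.095. Edem1, a lectin-like factor that picks glycoproteins for degradation, lay at 212 to 262 in knockout against 191 to 232 in wild type livers, a difference of 0.20 ± 0.10 (limma adjusted p = 0.553). Herpud1, a membrane adaptor of the degradation complex, lay at 428 to 712 in knockout against 428 to 572 in wild type livers, a difference of 0.17 ± 0.12 (adjusted p = 0.724 in limma). Its lowest knockout and lowest wild type livers were level, and knockout replicate 5 was the highest. Syvn1, the ubiquitin ligase HRD1, lay at 309 to 379 in knockout against 300.2 to 351 in wild type livers, a difference of 0.012 ± 0.081. Its partner Sel1l lay at 332 to 417 in knockout against 389.8 to 444 in wild type livers on the representing probe set, a difference of -0.083 ± 0.080 in the other direction. The other tested Sel1l probe sets had -0.0058, 0.047, 0.20 and, in the dimmest, 0.40, so they differed in sign. Of the derlins, which form a channel for retrieval, Derl1 lay at 757 to 904 in knockout against 709.5 to 878 in wild type livers (0.071 ± 0.077) and Derl2 at 513 to 578 in knockout against 463 to 528 in wild type livers (0.12 ± 0.068).

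Among genes of protein entry into the ER, the translocon-associated protein complex included Ssr1. Its representing probe set had the smallest spread among livers of 1 genotype over the representing probe sets of the members. Ssr3 measured 1998, 2268, 2055, 2168 and 2100.1 in knockout livers 1 to 5, against 1802, 1853, 1874, 1741 and 1877 in wild type livers 1 to 5, with no overlap at 0.21 ± 0.052 (limma adjusted p = 0.113). Ssr1 measured 1919, 1969, 1970.3, 2122 and 2008 in knockout livers 1 to 5, against 1826, 1761, 1781, 1819 and 1743 in wild type livers 1 to 5, also with no overlap, at 0.16 ± 0.049 (adjusted p = 0.223 in limma). Of 3 other Ssr1 probe sets, a dim one was positive and the rest had negative differences of -0.20 and -0.17 with overlap. The probe set at -0.20 spread widely, at 343 to 962 in knockout against 319 to 834 in wild type livers. Ssr2 lay at 726 to 776 in knockout against 599.8 to 752 in wild type livers, a difference of 0.17 ± 0.070 (limma adjusted p = 0.432), with overlap through wild type replicate 4 alone. Ssr4 lay at 1674 to 2386 in knockout against 1738 to 2089.5 in wild type livers, a difference of 0.070 ± 0.080.

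Of the Sec61 channel, Sec61a1, its pore, measured 1519, 1300.1, 1186, 1363 and 1341 in knockout livers 1 to 5, against 1348, 1307, 954, 1251 and 1300.1 in wild type livers 1 to 5 on the representing probe set. Wild type replicate 3 was low, and the log2 difference was 0.13 ± 0.090 (limma adjusted p = 0.692), or 0.041 without that liver. All 6 of its tested probe sets were positive, and 1 of the dimmer ones showed no overlap, at 534 to 589 in knockout against 413 to 506 in wild type livers and 0.28 ± 0.070 (adjusted p = 0.115 in limma). Sec61b, a small subunit, lay at 1672 to 1901 in knockout against 1655 to 1804 in wild type livers, a difference of 0.059 ± 0.052. Sec63, which couples the channel to BiP, lay at 226 to 318 in knockout against 226 to 342 in wild type livers, a difference of 0.066 ± 0.12. Signal peptidase cuts off signal peptides once a protein has entered, and all 4 of its members overlapped between genotypes. Spcs1 lay at 1804 to 1947 in knockout against 1608 to 1809 in wild type livers (0.099 ± 0.051), and Spcs2 at 1264 to 1411 in knockout against 1141 to 1338 in wild type livers (0.099 ± 0.059). Spcs3 lay at 1201 to 1298 in knockout against 1111 to 1329 in wild type livers (0.029 ± 0.064), and the catalytic subunit Sec11c at 227 to 369 in knockout against 272 to 363 in wild type livers (-0.038 ± 0.13).

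**Figure D3:**
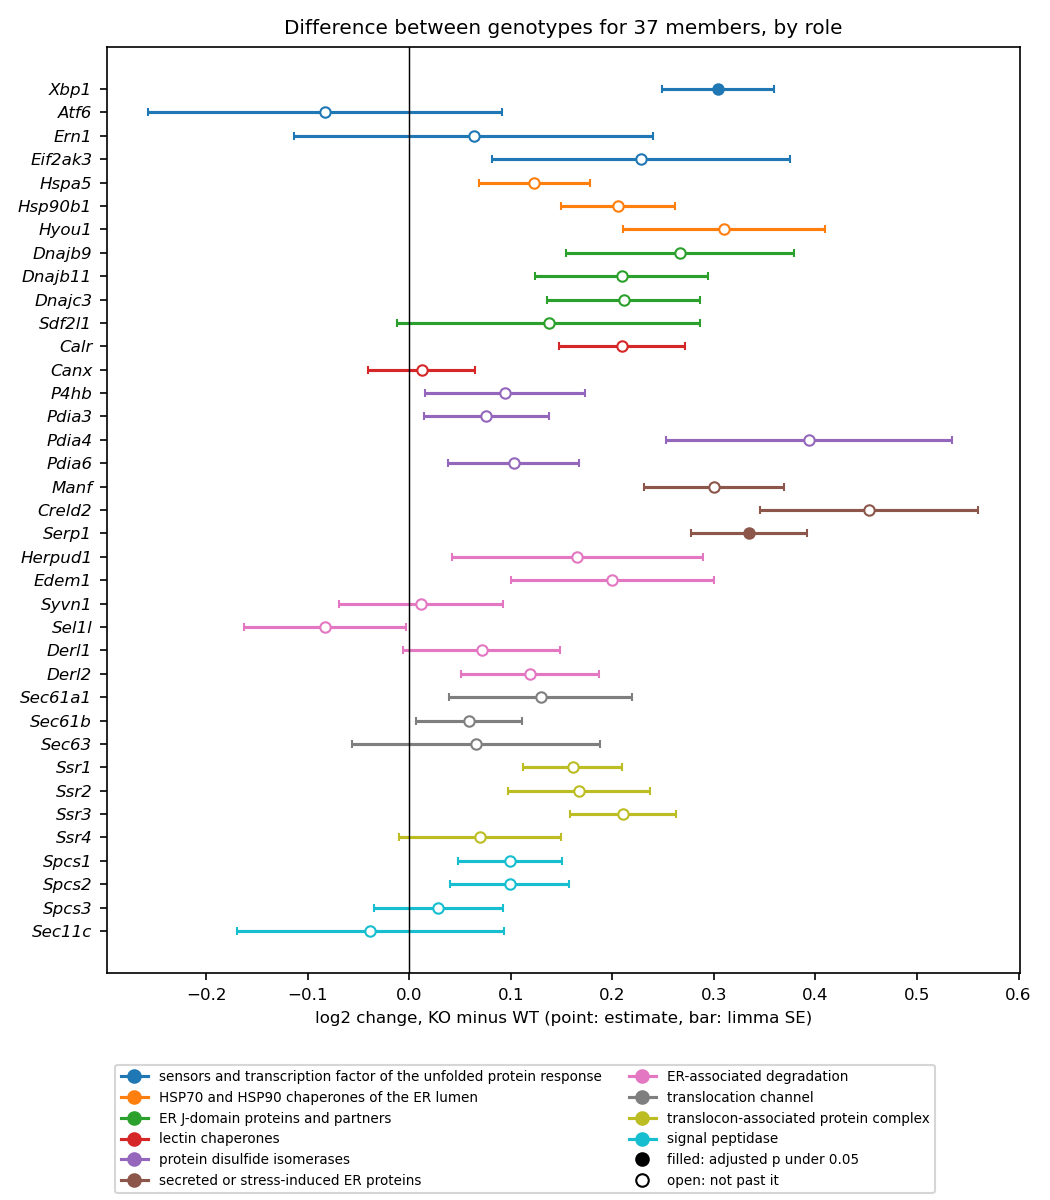
Log2 change of KO minus WT with its limma SE for 37 members in order of role, one probe set per gene. Filled points are Serp1 and Xbp1, the members past the adjusted threshold, and Atf6, Sel1l and Sec11c are the members below 0.

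Probe sets of one gene mostly shared a direction. Of 88 tested member probe sets 79 were positive, and of 25 members with more than 1 tested probe set, 21 had all of them in 1 direction. At an unadjusted p under 0.05, 29 were higher in knockout and 0 lower, where 5.94% of all tested genes were higher and 5.44% lower. That share was not counted over all tested probe sets. Many of these probe sets measure the same gene, so their counts add no separate support to those by gene. Some of these probe sets carry a suffix that marks them as shared between transcripts or open to cross-hybridization. No representing member probe set had a liver under the floor of 16.

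Taken by liver, each member was expressed as its log2 deviation from its own mean over the 10 livers. The median deviation over the 37 members was 0.049, 0.077, 0.094, 0.080 and 0.086 in knockout replicates 1 to 5, against -0.031, -0.063, -0.099, -0.060 and -0.077 in wild type replicates 1 to 5. The genotypes did not overlap. A knockout liver held the highest value in 32 of 37 members, and each knockout liver did so in 6 or 7 of them. The lowest value was in a wild type liver in 31 members, most often in replicates 3 and 4 with 9 each. These counts were not made over all tested genes. They show the same genotype differences by liver, for members listed with earlier results of these data known, and are no separate support. On their representing probe sets, members differed in how far livers of 1 genotype lay apart. The SD ran from 0.044 in Ssr1 to 0.28 in Ern1 on the log2 scale, with a median of 0.11.

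**Figure D4:**
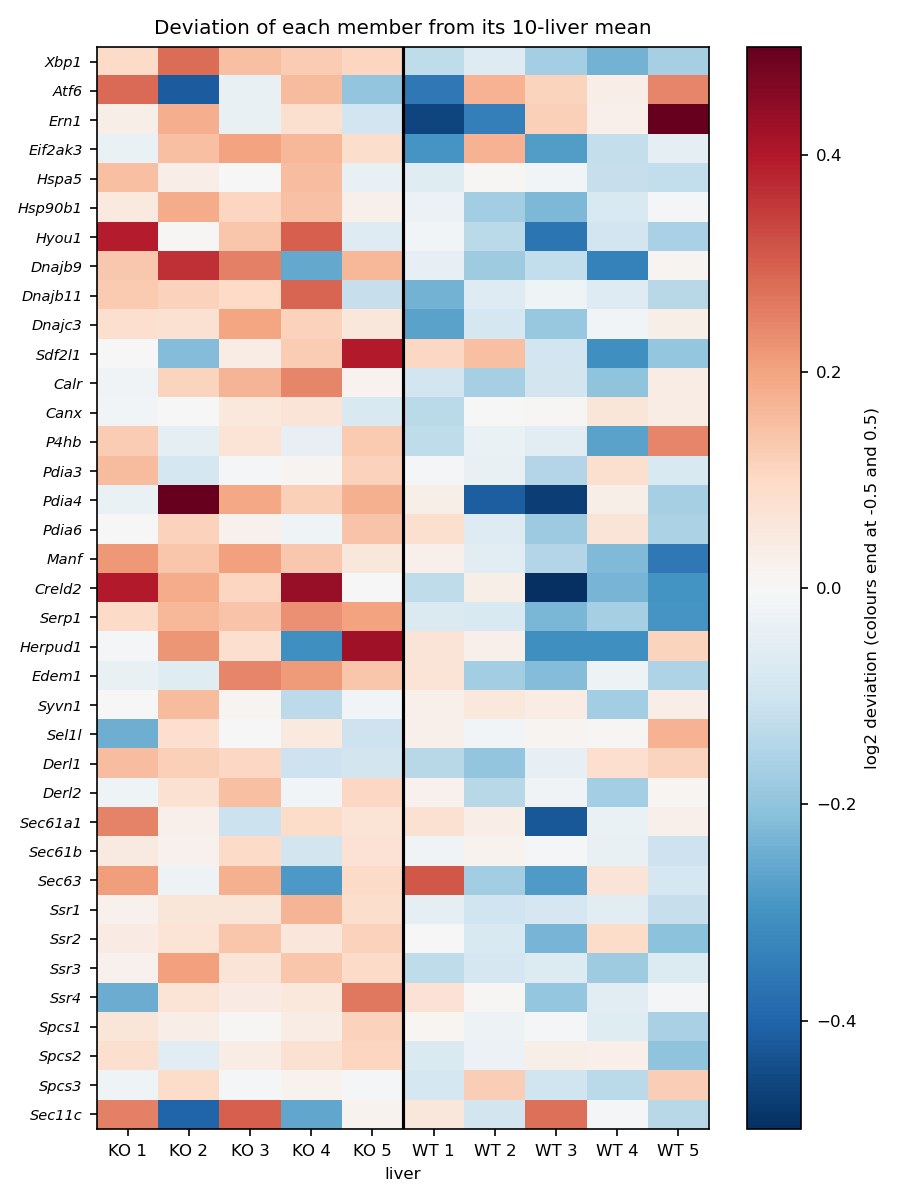
Log2 deviation of each of 37 members (rows, in order of role) from its mean over 10 livers (columns, KO left, WT right), with colours ending at -0.5 and 0.5. Most rows are red in the KO columns and blue in the WT columns, while rows such as Atf6, Ern1, Sel1l, Sec63 and Sec11c show no such split.

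Other genes of the pathway came from lists drawn up beside the members, also with earlier results of these data known. Of 100 tested related genes, 69 had a positive change, 1 was called higher and 0 lower, and the median log2 change was 0.062. Of all tested genes 50.1% had a positive change, 0.156% were called higher and 0.172% lower. The one called was Ero1a, the oxidase that reloads the disulfide isomerases and a gene also induced by hypoxia. It averaged 671 ± 66.6 in knockout and 461 ± 48.2 in wild type livers, with no overlap, at 0.54 ± 0.087 (limma adjusted p = 0.023). Its call was lost without knockout replicate 3 or 4 or wild type replicate 2, 3 or 4, at log2 changes of 0.49 to 0.55 and adjusted p-values of 0.0522 to 0.0624. It was also lost with either other floor, without a filter or without the trend, at adjusted p-values of 0.0594 to 0.192. At an unadjusted p under 0.05, 18 of the related genes were higher and 2 lower, against 5.94% and 5.44% of all tested genes.

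Among other folding factors and oxidases, 15 of 22 tested genes were positive, with a median of 0.079. Genes of signal recognition and other translocation factors were positive in 10 of 11, with a median of 0.077, and the lowest p-values belonged to Srp14 at 0.17 ± 0.073 and Sec61a2 at 0.36 ± 0.16. Oligosaccharyltransferase, which attaches glycans in the ER, had 7 of 12 positive, with Ostc at 0.23 ± 0.067 and no overlap, and Krtcap2 at 0.22 ± 0.096. In COPII transport and ER retrieval 17 of 19 were positive, with a median of 0.10. Its Sec24d, a cargo adaptor of the COPII coat, had 0.47 ± 0.10 (limma adjusted p = 0.0739) and its Mcfd2, a cargo receptor subunit for coagulation factors, -0.36 ± 0.080 (adjusted p = 0.0795), in opposite directions and each without overlap.

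Further genes of ER-associated degradation were positive in 8 of 18, with a median of -0.0055. Selenos, a membrane anchor of the degradation complex, had the lowest p, at 0.27 ± 0.062 with no overlap (limma adjusted p = 0.0894), and Selenok had 0.088 ± 0.059. The PERK arm was positive in 3 of 8, with a median of -0.043. Ddit3, which encodes the death-promoting factor CHOP, lay lower in every knockout liver, at 74.7 to 129 in knockout against 146 to 184 in wild type livers and a log2 difference of -0.52 ± 0.16 (adjusted p = 0.225 in limma). Ppp1r15b, which directs the dephosphorylation of eIF2 alpha, also lay lower in every knockout liver, at -0.11 ± 0.052. Other regulators of the response were positive in 9 of 10, led by Mbtps2, a protease that cleaves ATF6, at 0.33 ± 0.19, and Creb3l2 at 0.27 ± 0.19. Differences between these lists were not tested.

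Markers of the cell types that a fetal liver can hold were set beside the members. A summed intensity is led by the brightest probe sets of its list, and is not a measure of cell number. Of 8 tested hepatoblast and hepatocyte markers 5 were positive with a median log2 change of 0.013, and their summed intensity was 63422 to 77833 in knockout and 65526 to 74859 in wild type livers. Their log2 changes ran from -0.043 to 0.51, with 0 called in limma, and 2 higher and 0 lower at an unadjusted p under 0.05. None of these markers averaged under the floor, so the labelled tissue has its defining markers. Macrophage markers were positive in 10 of 10 with a median of 0.40, and summed to 6484 to 7639 in knockout and 3588 to 6694 in wild type livers. In limma 0 of the macrophage markers were called, and 5 were higher at an unadjusted p under 0.05. For neutrophil markers, 7 of 9 were positive with a median of 0.93, and they summed to 13936 to 26198 in knockout and 6185 to 27598 in wild type livers, with 0 called and 6 higher at that unadjusted level. Erythroid markers were positive in 1 of 8 with a median of -0.23, and summed to 26748 to 30301 in knockout and 27561 to 35714 in wild type livers, with 0 called and 6 lower at that level. Megakaryocyte markers were positive in 0 of 7 with a median of -1.18, 5 of them called lower, and summed to 1583 to 2567 in knockout and 3813 to 5536 in wild type livers. Of all tested genes 0.156% were called higher and 0.172% lower, and at the unadjusted level 5.94% were higher and 5.44% lower. The part of these cell types in the values of the ER genes was not tested.

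Pancreas, whose acinar cells carry a dense ER, lies close to the liver in the fetus. Of its 6 markers with a probe set, 5 (Ptf1a, Cpa1, Cel, Ins2 and Gcg) averaged under the floor over the 10 livers. The 6 markers summed to 23.3 to 63.0 in knockout and 1.28 to 189 in wild type livers. B-lymphoid and plasma cell markers summed to 550.2 to 721 in knockout and 492 to 665 in wild type livers, and 5 of 6 tested were positive with a median log2 change of 0.14. Of these markers Pax5, Jchain and Prdm1 averaged under the floor. Endothelial markers summed to 945 to 1134 in knockout and 854 to 1002 in wild type livers, and 5 of 6 were positive with a median log2 change of 0.21. Stellate and mesenchymal markers summed to 1778 to 3344 in knockout and 2082 to 2703 in wild type livers, with Des under the floor, and 5 of 6 tested were positive with a median of 0.078. At an unadjusted limma p under 0.05, higher markers numbered 1 for B-lymphoid and plasma cells, 2 for endothelium and 0 for stellate and mesenchymal cells. In each of these lists 0 were lower at that level and 0 were called. The part of these cells was likewise not tested.

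The marker lists and the ER genes were also set side by side in single livers. Neutrophil markers had median deviations of -0.11 to 0.80 in knockout livers, against -1.17, 0.100, -0.78, -1.53 and 0.90 in wild type replicates 1 to 5. Wild type replicates 1, 3 and 4 lay below every knockout liver in these markers, while replicate 5 was the highest of all livers. Over the ER members every wild type liver lay below every knockout liver. Macrophage markers had 0.096 to 0.33 in knockout livers, against -0.19, -0.091, -0.28, -0.45 and 0.091 in wild type replicates 1 to 5, all of them lower. Over the ER members, knockout livers had 0.049 to 0.094 and wild type livers -0.099 to -0.031. In hepatocyte markers knockout replicate 5 stood at 0.18 and wild type replicate 5 at 0.14, the highest livers of their genotypes. Knockout replicate 2 was lowest of all in hepatocyte markers, at -0.15. Erythroid markers had -0.18 to -0.051 in knockout livers and 0.017 to 0.23 in wild type livers. Megakaryocyte markers had -1.01 to -0.15 in knockout livers and 0.28 to 0.80 in wild type livers. Macrophage, erythroid and megakaryocyte markers separated the genotypes fully, as did the ER members, so these markers and genotype cannot be told apart here. Whether the ER genes follow any of these cell types from liver to liver was not tested.

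**Figure D5:**
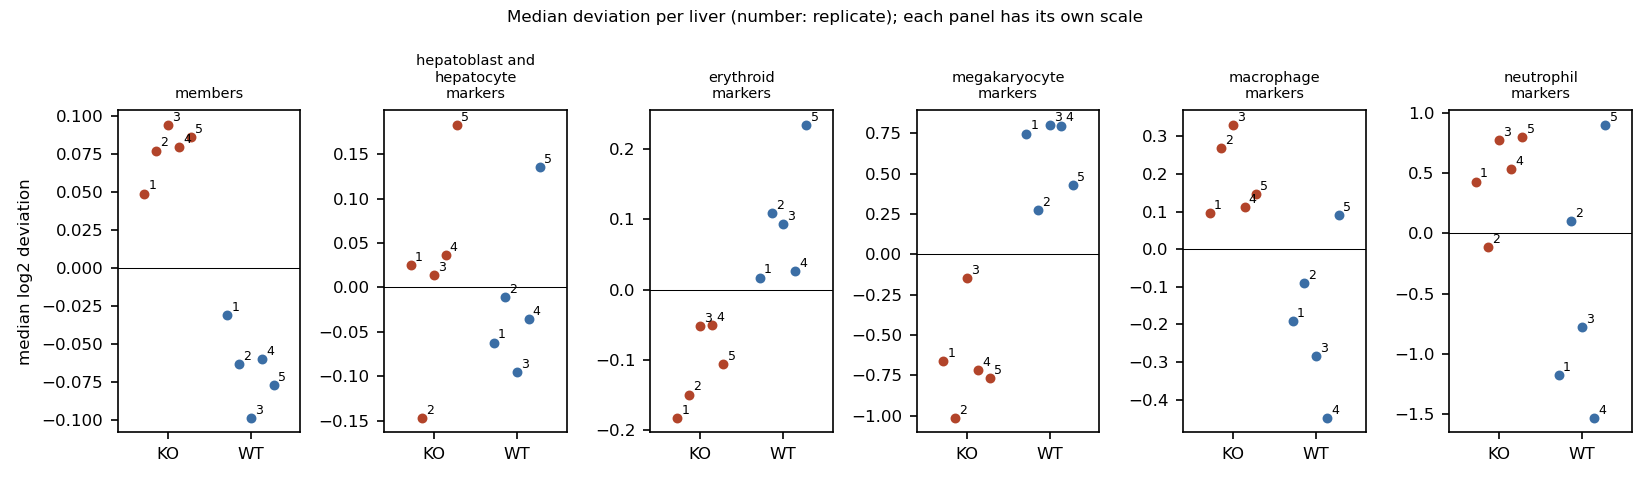
Median log2 deviation of the 37 members and of marker lists in each KO and WT liver, numbered by replicate, with a separate vertical scale per panel. The members separate the genotypes fully, as do erythroid, megakaryocyte and macrophage markers, while hepatocyte and neutrophil markers overlap.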

How the data were processed

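The deposited table holds 1 intensity per probe set and array, on a linear scale that runs below 0. How the authors scaled these intensities and with which software is not stated by the labels or the header. Per the labels' protocols, RNA from single livers was labelled with biotin in a one-cycle Affymetrix reaction. Intensities were quantile-normalized here, values under 16 were set to 16, and log2 was taken. That floor replaces the lowest positive value used earlier on this table, which turns dim values into large negative ones. Probe sets with a mean log2 value above the 40th percentile were tested for genotype with limma (version 3.58.1, R version 4.3.3), using moderated statistics with an intensity trend. Two-sided p-values of all 27022 were adjusted by Benjamini and Hochberg, and 0.05 was the threshold.

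A gene is represented by its tested probe set with the highest mean. Annotation gave 34945 probe sets 1 symbol, 932 several and 9160 none; older symbols were updated through RefSeq (GRCm38.p6). Means and SDs use normalized linear intensities of 5 livers, whose number limits the precision. Members and lists were chosen with earlier results of these data known. Every member is named; of each related list, called genes or else up to 2 with the lowest p. The limma code was tested on simulated data. Protein sequences were not analysed here. Figures used matplotlib 3.10.9 in Python 3.11.15.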

Additional observations from a re-analysis of the deposited data

Results flagged for a closer look

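In 5 of 80 groups of 5 livers, a liver lay apart from the others of its genotype by Dixon's ratio, where chance gives about 1 in 20 groups, or 4 here. Syvn1 was low in wild type replicate 4, at log2 8.23 with the nearest at 8.43. Sel1l was high in wild type replicate 5, at 8.79 with the nearest at 8.64. Sec61a1 was low in wild type replicate 3, at 9.90 with the nearest at 10.3. Zfp36l2 was low in knockout replicate 2, at 6.36, and high in wild type replicate 3, at 9.22. The median deviation of the members showed no liver apart.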

How the results depend on the processing

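The direction of the group held in the 22 settings tried: 32 to 35 members were positive, with a median log2 change of 0.11 to 0.21, and 10 to 20 members were higher and 0 lower at an unadjusted p under 0.05. The share of all genes at that level was counted in the main setting only, 5.94% higher and 5.44% lower. The 20 came from median scaling, where 62.2% of all genes had a positive change, against 50.1% in the main setting. The member median was 0.21 with median scaling, where all genes had 0.062, 0.16 over all probe sets of a gene, and 0.11 to 0.17 with 1 liver left out. Calls were less stable. Members called numbered 2 in the main setting, 4 with the replicate block (Creld2 and Manf added, at limma adjusted p-values of 0.0453 and 0.0315) and 3 with median scaling (Manf added), but 0 in limma without normalization, with the floor at the lowest positive value or at 32, without a filter, or in eBayes without trend, where 10 to 19 members were higher at an unadjusted p under 0.05; leaving out 1 liver gave 0 to 2. Serp1 was called in 11 and Xbp1 in 8 of 22 settings, with log2 changes of 0.29 to 0.40 and 0.27 to 0.37. Probe sets called over the whole array numbered 57, 50.9% of them higher, 94 with median scaling (73.4% higher), 11 with the floor at the lowest positive value (9.09%), 12 with a floor of 32 (25%), 4 without a filter (25%), 9 without trend (22.2%), 103 with array weights (59.2%), 179 with the replicate block (62%) and 13 (without wild type replicate 4, 15.4%) to 168 (without wild type replicate 5, 72%) with 1 liver left out. The cause of these differences was not tested. Zfp36l2 was called in every setting. Deviations of same-numbered livers from their genotype means correlated at 0.028 to 0.13, all of them positive. Of the 5 knockout livers 4 correlated best with the wild type liver of their number. The main setting did not use the numbers as pairs, and whether same-numbered livers share a source was not tested. Signs turned in these members, none of them called: Canx (-0.0017 without normalization, -0.020 to 0.032 without 1 liver), Syvn1 (-0.0056 and -0.031 to 0.046), Sec11c (0.031 with median scaling, 0.027 over all probe sets, -0.12 to 0.058 without 1 liver), Sel1l (0.11) and Ssr1 (-0.012) over all probe sets, and Atf6 (-0.18 to 0.011), Ern1 (-0.043 to 0.20) and Spcs3 (-0.00081 to 0.063) without 1 liver.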
